A study of Mus musculus with 47 samples.

Results

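Collagens and other matrix proteins were followed as a list of 45 mouse genes that encode collagens, elastic fibre proteins, small leucine-rich proteoglycans, basement membrane proteins, matricellular proteins and fibronectin. The list was drawn up by what the genes encode, with earlier results of these data known. Of the 45 genes, 42 had a probe set that names a single gene, while Fbn1, Efemp2 and Loxl2 had none that could be used. A filter on low signal kept 36 of the 42 for testing, out of 8675 genes tested on the arrays.

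JB6 is a mouse epidermal cell line, labelled in the study as progenitor cells, and 2 derivatives of it were compared. The AnxA2 shRNA cells carry a stably integrated retroviral short hairpin RNA against annexin A2, a calcium- and phospholipid-binding protein. The control cells carry the vector and are labelled Ps vector. Both were selected with puromycin, and the labels name 1 line of each, so line and hairpin cannot be told apart. Cells of each line received 10 or 100 cGy of X-rays and were harvested after 2, 6 or 24 h, and untreated cells of each line, sham-handled, were harvested at 2 and 24 h. There were 24 shRNA arrays (18 irradiated, 6 untreated) and 23 vector arrays (17 irradiated, 6 untreated), in 16 groups. Each group held 3 arrays, except that the vector group at 10 cGy and 24 h held 2. The labels do not say whether replicates came from separate cultures, so every p-value measures the spread between these arrays, which may be technical.

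The extracellular matrix is a scaffold secreted by the cells it surrounds. Fibrillar collagens such as types I, III and V form the tensile fibres, and the network collagens of type IV polymerise with laminins and nidogens into the basement membrane that underlies the epidermis. Microfibrils, fibulins and elastin, cross-linked by lysyl oxidases, form elastic fibres. Small leucine-rich proteoglycans bind collagen fibres, and matricellular proteins such as tenascin C, thrombospondin 1 and periostin act on cells more than they bear load.

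Values are the authors' log2 signals after robust multi-array averaging (RMA), and differences are on the same log2 scale, where 1 is a doubling. Levels of different genes were not compared, since probe sets differ in brightness. A gene was called where limma's adjusted p was under 0.05, and the number of arrays sets the precision. The low-signal limit was a mean log2 signal of 4.35 over all arrays, the level under which the lowest 30% of genes lay. It is not a detection call, and a value under it was read only as a bound. RNA was taken from whole cultures, so fewer cells of a type and less RNA per cell cannot be told apart.

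Annexin A2 checked the labels. Anxa2 had a lowest, median and highest value of 10.58, 10.96 and 11.15 on the 6 untreated shRNA arrays, against 12.25, 12.44 and 12.66 on the 6 untreated vector arrays. The lines did not overlap, and the array signal in the shRNA line was 34.7% of that in the vector line when irradiated and 34.2% when untreated. The labels state a nearly complete knockdown of its RNA by Western blot and in situ hybridization. Of these a Western blot reads protein, and the loss of array signal here was not nearly complete. Of 12 epithelial and keratinocyte markers 5 were above the low-signal limit, with a summed linear signal of 391.5 to 467.7 on shRNA arrays and 357.0 to 432.7 on vector arrays. By line means Krt18, Krt19, Cdh1, Epcam, Trp63, Krt1 and Ivl were under the limit in both lines. Krt10 (6.84 on shRNA and 7.33 on vector arrays), Lor (6.27 and 6.28), Krt8 (5.05 and 5.03) and Krt5 (4.69 and 4.56) were above it in both. Of 10 fibroblast and mesenchymal markers 9 were above it, with sums of 21490 to 23561 and 20514 to 22111. The sums set the lines beside each other within a list, and not list beside list. Single markers moved in both directions. The cadherin Cdh11 had a mean of 3.32 on shRNA arrays and 9.76 on vector arrays, and the receptor Pdgfra 6.98 and 9.53, while Cdh2 had 9.42 and 8.54. Among keratinocyte markers the basal keratin Krt14 had 6.57 on shRNA arrays and 3.84, under the limit, on vector arrays. In untreated cells Krt14 and Cdh2 were called higher and Cdh11 and Pdgfra lower. Of the 5 epithelial and keratinocyte markers tested 1 was called higher and 1 lower (-0.31), against 48.2% of all genes tested called. The part of these markers in the results below was not tested. The replicate 3 vector arrays at 2 h (untreated, 10 and 100 cGy) stood apart from the other 2 of their groups, and 4 arrays had a raised difference between the 3′ and 5′ Gapdh control probe sets (0.309 to 1.06). Where a result below rests on a call that changed without these arrays, the changed value is given.

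The 6 genes left out by the filter had little signal. Col11a1, a fibrillar collagen of cartilage, lay between 2.89 and 3.73 on all arrays, and Col15a1, a basement membrane collagen, between 3.71 and 4.74. Efemp1, a fibulin, lay between 2.19 and 2.74, the proteoglycan Lum between 2.57 and 3.45, and Thbs2, a second thrombospondin, between 2.81 and 3.42. Nid2, which links laminin and collagen IV networks, was split by line. Nid2 had 2.94, 3.64 and 3.78 as lowest, median and highest value on untreated shRNA arrays, all under the limit, against 5.06, 5.41 and 5.77 on untreated vector arrays. This put Nid2 at least 2.11-fold lower in the shRNA line, with no test because its mean over all arrays was under the limit. Just inside the filter were Eln, with a mean of 5.22, and Sparcl1, with 5.26.

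The shRNA line had a different set of matrix transcripts from the vector line. In untreated cells it had higher levels of fibrillar and network collagens, of the lysyl oxidases Lox and Loxl1, of the fibulins Fbln2 and Fbln5, of the microfibril protein Mfap5 and of the proteoglycan Prelp. It had lower levels of the secreted calcium-binding proteins Smoc2 and Sparcl1, of nidogen 1 and of the laminin chain Lamb1. Of the 36 genes tested 27 were called, 18 higher and 9 lower, against 48.2% of all genes tested called (24.1% higher, 24.1% lower). The median difference was 0.30, against 0.02 over all genes tested. Mfap5, Prelp, Smoc2 and Sparcl1 passed the filter through the line in which they were high, so they had to differ. No p-value of their line difference is therefore given, and the counts of this paragraph are a description. Of the 36 genes 9 were called and differed at least 2-fold, against 4.55% of all genes: Mfap5, Prelp, Col4a5, Col5a3 and Lox were higher, and Smoc2, Sparcl1, Nid1 and Lamb1 lower. Of the 36 genes 15 did not overlap between lines on the untreated arrays (18.4% of all genes), and 11 did not overlap on all 47 (7.53%).

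**Figure D1:**
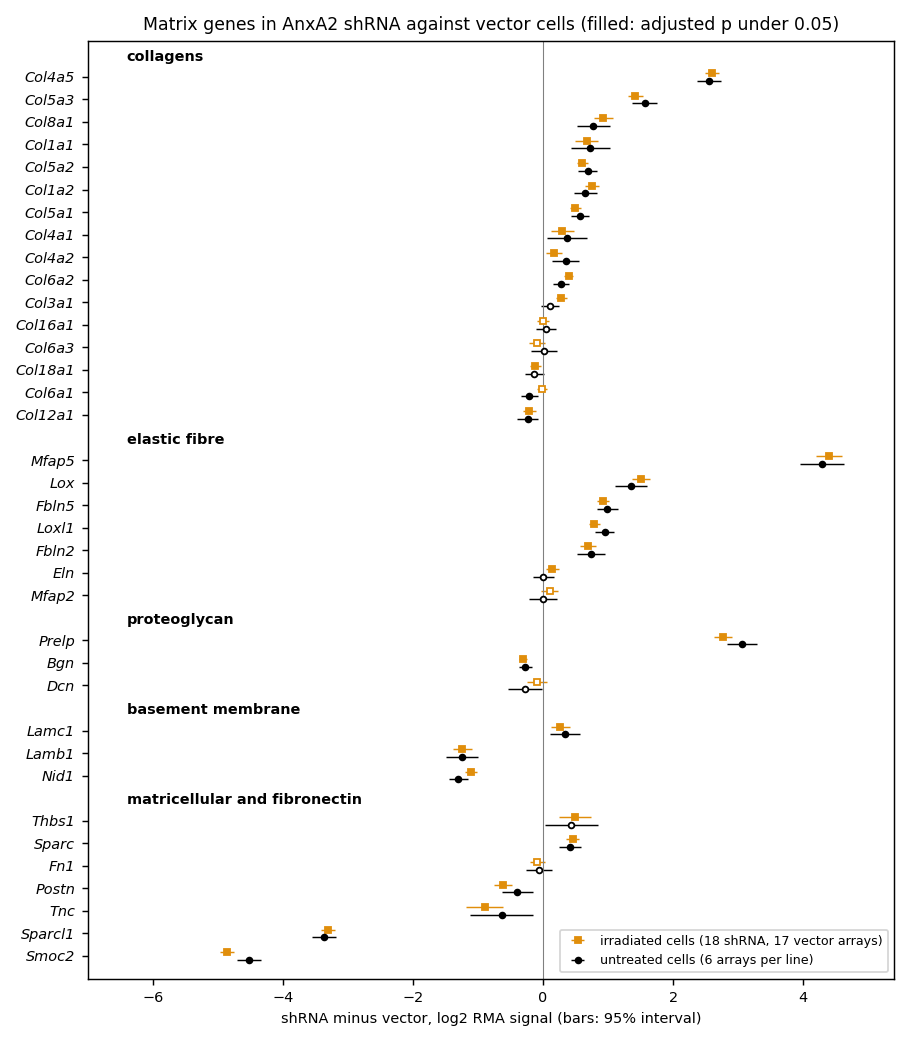
Log2 difference, shRNA minus vector, for the 36 tested matrix genes in irradiated and in untreated cells, with 95% intervals and filled symbols where the adjusted p was under 0.05. In untreated cells Mfap5 (4.29) and Prelp (3.06) lie furthest to the right and Smoc2 (-4.52) and Sparcl1 (-3.37) furthest to the left.

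Among collagens, 10 of 16 were higher and 2 lower in untreated shRNA cells, with a median difference of 0.36. Of 6 fibrillar chains 5 were higher, and all 4 network chains were. Col4a5, a chain of type IV collagen, had a lowest, median and highest value of 7.49, 7.64 and 7.96 on untreated shRNA arrays, against 5.03, 5.08 and 5.26 on untreated vector arrays. No shRNA value overlapped a vector value, and the difference was 2.55 (SE 0.09, adjusted p = 1.27e-23), or 5.86-fold. The fold rests on the brightest probe set, and a second, dimmer Col4a5 probe set had a smaller difference of 1.69. Col5a3, the third chain of type V collagen, which regulates fibre diameter, had 5.53, 6.19 and 6.51 in shRNA cells, against 4.34, 4.54 and 4.79 in vector cells. Again the lines did not overlap, and Col5a3 was 1.56 higher (SE 0.10, adjusted p = 1.75e-16), or 2.95-fold, with 1 vector array under the low-signal limit. The other called fibrillar chains differed less on their brightest probe sets: Col1a1 and Col1a2, the chains of type I collagen, by 0.72 and 0.65, and Col5a2 and Col5a1 of type V by 0.68 and 0.57. A dimmer probe set had a larger difference of 1.33 for Col5a2 and a smaller one of 0.25 for Col1a1. Col8a1, a short-chain network collagen, was 0.77 higher. Col4a1 and Col4a2, the common chains of type IV collagen, were 0.37 (adjusted p = 0.0455) and 0.35 higher, well short of the difference of Col4a5. The Col4a1 call was lost when any of 7 single arrays was left out, with an adjusted p up to 0.156 without the untreated 24 h vector replicate 3. The beaded collagen VI did not move as a unit, since Col6a2 was 0.27 higher, Col6a1 was 0.21 lower (a difference of -0.21) and Col6a3 had a difference of 0.01 that was not called. Col12a1, which binds to the surface of fibres, had a difference of -0.24 and was lower. Col3a1, Col16a1 and Col18a1 were not called, with differences of 0.11, 0.04 and -0.14.

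Elastic fibre genes had 5 of 7 higher and 0 lower in untreated shRNA cells, with a median difference of 0.95. Mfap5, which associates with fibrillin microfibrils, had 7.69, 8.07 and 8.66 on untreated shRNA arrays, against 3.41, 3.88 and 4.04 on untreated vector arrays. All 6 vector values were under the low-signal limit, so Mfap5 was at least 13.5-fold higher, with a fitted difference of 4.29 (SE 0.17). A second, dimmer Mfap5 probe set had a smaller difference of 2.31. Lox, which oxidises lysines to start collagen and elastin cross-links, had 9.66, 10.21 and 10.81 in shRNA cells, against 8.53, 8.91 and 9.11 in vector cells. The lines did not overlap, and Lox was 2.55-fold higher (difference 1.35, SE 0.12, adjusted p = 6.29e-12). Its relative Loxl1 was 0.95 higher, Fbln5, which tethers elastin to microfibrils, 0.98 higher, and Fbln2 0.74 higher. Eln, elastin itself, and the microfibril protein Mfap2 had differences of 0.01 and -0.00 and were not called.

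Of 3 proteoglycans 1 was higher, 1 lower and 1 not called. Prelp, which anchors collagen to basement membranes through heparan sulfate, had 6.58, 7.19 and 7.68 on untreated shRNA arrays, against 3.70, 3.97 and 4.63 on untreated vector arrays. Of the 6 vector values 4 were under the limit, and Prelp was at least 6.61-fold higher, with a fitted difference of 3.06 (SE 0.11). The fold rests on the brightest probe set, and a second Prelp probe set had a smaller difference of 1.28. Bgn, biglycan, was lower by a small margin, with a difference of -0.27 and no overlap between lines, and Dcn, decorin, had a difference of -0.28 that was not called (adjusted p = 0.0667).

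Basement membrane genes other than collagen IV ran the other way in 2 of 3. Nid1 had 8.97, 9.34 and 9.72 on untreated shRNA arrays, against 10.34, 10.64 and 10.96 on untreated vector arrays. The lines were fully apart, with Nid1 2.47-fold lower (difference -1.30, SE 0.07, adjusted p = 8.40e-18). Lamb1, the beta 1 chain of laminin, had 8.25, 8.86 and 9.29 in shRNA cells, against 9.62, 9.92 and 10.65 in vector cells. Lamb1 was 2.37-fold lower (difference -1.25, SE 0.12, adjusted p = 6.54e-11), without overlap when untreated and with overlap among irradiated arrays. Lamc1, the gamma 1 chain that pairs with it, was 0.34 higher (adjusted p = 0.0163), a call lost without the 3 vector arrays that stood apart (adjusted p = 0.0724) and without the 4 with a raised Gapdh difference (adjusted p = 0.226). Leaving out the untreated 2 h vector replicate 3 alone also ended it (adjusted p = 0.118).

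Of 7 matricellular genes and fibronectin, 1 was higher and 4 were lower. Smoc2, which is related to Sparc and found in basement membranes, had 3.37, 3.77 and 4.16 on untreated shRNA arrays, against 6.90, 8.31 and 9.50 on untreated vector arrays. All 24 shRNA arrays were under the limit, untreated or irradiated, and Smoc2 was at least 15.2-fold lower in untreated cells (fitted difference -4.52, SE 0.09). The fold rests on the brightest probe set, and a second, dimmer Smoc2 probe set had a smaller difference of -3.62. Sparcl1, also called hevin, a relative of Sparc that binds collagen, had 3.46, 3.79 and 4.15 in shRNA cells, against 6.70, 7.19 and 7.56 in vector cells. Its shRNA arrays were likewise all under the limit, and it was at least 7.03-fold lower (fitted difference -3.37, SE 0.09). Sparc, the collagen-binding founder of this family, was higher instead, by 0.41. Tnc and Postn had differences of -0.63 (adjusted p = 0.0268) and -0.40, Thbs1 had 0.44 and Fn1 -0.06, and the last 2 were not called. The Tnc call was lost when any of 6 single arrays was left out, with an adjusted p up to 0.111 without the untreated 2 h vector replicate 1. Without the 3 vector arrays that stood apart Fn1 was called lower, with a difference of -0.17 (adjusted p = 0.0381).

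**Figure D2:**
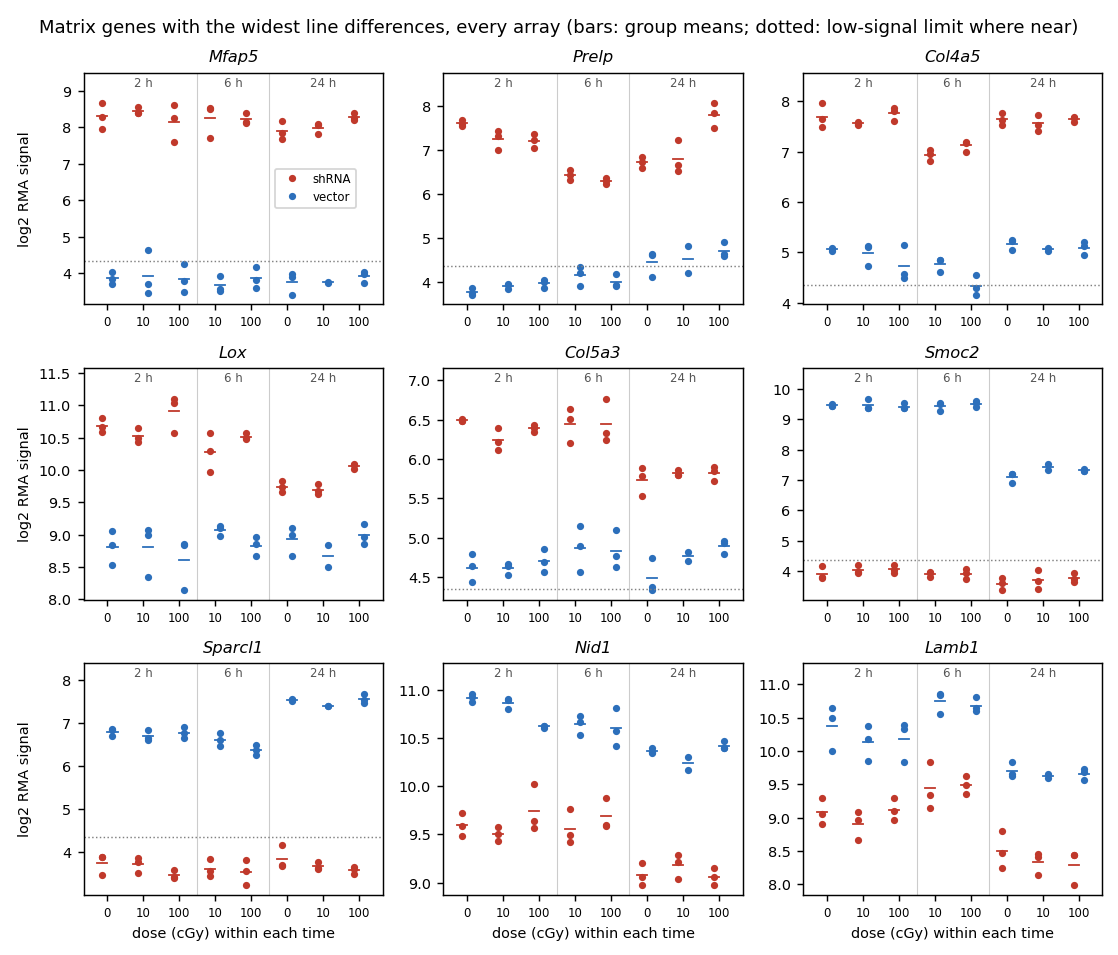
Log2 signal on every array by hour and dose (cGy) for 9 matrix genes that differed most between lines, shRNA arrays left of vector arrays, with bars at group means and a dotted line at the low-signal limit. For Mfap5 untreated arrays lie at 7.69 to 8.66 in shRNA cells and at 3.41 to 4.04 in vector cells, and for Smoc2 at 3.37 to 4.16 and 6.90 to 9.50.

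The irradiated arrays gave the same comparison on other arrays. Over 10 and 100 cGy at 2, 6 and 24 h, 30 of 36 genes were called, 21 higher and 9 lower in shRNA cells, against 64.8% of all genes (32.2% higher, 32.6% lower). The filter used the mean over all arrays, so Mfap5, Prelp, Smoc2 and Sparcl1 had to differ here too, and these counts are a description. The differences of the genes furthest apart were 4.40 for Mfap5, 2.77 for Prelp, 2.60 for Col4a5, 1.50 for Lox and 1.42 for Col5a3. On the other side stood Smoc2 at -4.86, Sparcl1 at -3.30, Lamb1 at -1.24 and Nid1 at -1.11. Of the genes not called when untreated, Col3a1 (0.28), Thbs1 (0.49) and Eln (0.14) were higher and Col18a1 (-0.12) lower on these arrays. Col6a1 was lower in untreated cells and was not called here, with a difference of -0.02. Fn1 was called lower here (-0.14, adjusted p = 0.00259) once the 3 divergent vector arrays of 2 h were left out.

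The upstream 250 bases of 4 genes that differed between lines are shown, from 2 genes that were higher and 2 that were lower in shRNA cells by at least 2-fold. These 4 were picked with their values known, and Col5a3 also has a window that is not printed. They come from RefSeq on mouse build GRCm38.p6, read 5′ to 3′ on the gene's strand, ending at the base before an annotated start. Capitals mark the letters CCAAT or their reverse complement. They were 1 of 3 motifs searched on both strands, the others being the TATA box TATAAA and the AP-1 motif TGANTCA. Prelp lies at chr1:133921402-133921651 on the minus strand, Col4a5 at chrX:141475169-141475418, Lamb1 at chr12:31265043-31265292 and Nid1 at chr13:13437352-13437601, these 3 on the plus strand. RefSeq's span of the Prelp gene reaches upstream to 133930102, so its printed window lies inside the gene. The spans of Col4a5 and Lamb1 begin at 141475370 and 31265146, inside their windows.
Prelp: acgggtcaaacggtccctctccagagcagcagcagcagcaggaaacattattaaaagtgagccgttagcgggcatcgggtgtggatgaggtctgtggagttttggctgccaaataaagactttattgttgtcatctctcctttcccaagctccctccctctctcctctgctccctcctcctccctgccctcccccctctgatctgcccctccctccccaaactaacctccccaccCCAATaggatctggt
Col4a5: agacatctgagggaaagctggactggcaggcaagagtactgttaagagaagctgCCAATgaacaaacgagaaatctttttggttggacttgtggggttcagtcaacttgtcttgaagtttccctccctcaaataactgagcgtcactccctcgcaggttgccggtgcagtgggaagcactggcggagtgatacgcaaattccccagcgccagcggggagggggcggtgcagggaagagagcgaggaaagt
Lamb1: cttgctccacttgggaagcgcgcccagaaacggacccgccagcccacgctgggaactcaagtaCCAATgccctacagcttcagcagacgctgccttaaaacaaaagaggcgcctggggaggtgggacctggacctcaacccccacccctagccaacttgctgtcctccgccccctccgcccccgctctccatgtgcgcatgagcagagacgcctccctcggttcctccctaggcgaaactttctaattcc
Nid1: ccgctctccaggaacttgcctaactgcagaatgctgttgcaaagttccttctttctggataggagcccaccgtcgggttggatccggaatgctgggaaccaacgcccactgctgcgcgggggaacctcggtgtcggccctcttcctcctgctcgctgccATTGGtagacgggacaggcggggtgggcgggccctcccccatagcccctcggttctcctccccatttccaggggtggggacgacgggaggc
The CCAAT letters begin 15 bases before the start used in Prelp, 196 in Col4a5, 187 in Lamb1 and 91 in Nid1, and none of the 4 windows holds TATAAA or TGANTCA. The letters CCAAT were found in 14 of 37 windows of matrix genes (37.8%), against 33.8% of 32851 mouse windows of this length, so Prelp and Col4a5, higher in shRNA cells, and Lamb1 and Nid1, lower, carry the same common motif.

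For part of the list the line difference was not the same at both hours. At 24 h in untreated cells 24 of 36 genes were called (15 higher, 9 lower in shRNA cells), against 39.3% of all genes (19.4% higher, 19.9% lower), and at 2 h also 24 (17 higher, 7 lower), against 33.8% (16.3% higher, 17.5% lower). These comparisons use the arrays already described above, and the filter bears on Mfap5, Prelp, Smoc2 and Sparcl1 in them as well. Of the 6 tested fibrillar chains 5 were higher and 1 was lower at 24 h, and all 6 were higher at 2 h. The Col1a1 call at 24 h was lost without the untreated 24 h vector replicate 3 (0.54, adjusted p = 0.0633). Leaving out single arrays also ended the calls of Col4a1, Col8a1, Col12a1 and Col18a1 at 24 h. At 2 h it ended those of Fbln2 and Tnc. Col3a1, the chain of type III collagen, was the one lower at 24 h (difference -0.45, adjusted p = 3.57e-04), and it was 0.67 higher at 2 h (adjusted p = 1.57e-06). Col6a2 had -0.14 at 24 h, not called, and was 0.68 higher at 2 h, while Col6a1 was lower at 24 h with -0.56 and had 0.14 at 2 h, not called. Thbs1 had -0.31 at 24 h and was 1.18 higher at 2 h (adjusted p = 0.0012), and Postn had 0.18 at 24 h and was lower at 2 h (-0.98), neither called at 24 h. Col4a5 had differences of 2.47 at 24 h and 2.64 at 2 h, Nid1 of -1.29 and -1.32, Lamb1 of -1.20 and -1.30 and Fbln5 of 0.99 and 0.98, all called at both hours. Without the 4 arrays with a raised Gapdh difference Fbln2 was no longer called at 2 h (0.39, adjusted p = 0.0967). Without the 3 vector arrays that stood apart Dcn (0.41, adjusted p = 0.048) and Fn1 (-0.32, adjusted p = 0.0177) were called at 2 h.

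The matrix transcripts of untreated cells were different at 24 h and at 2 h in each line. In shRNA cells 12 of 36 genes were called, all lower at 24 h than at 2 h, against 19.2% of all genes (10.1% higher, 9.14% lower), with a median of -0.23 against 0.02. Thbs1, thrombospondin 1, which binds and activates latent TGF-beta, was 6.01, 5.81 and 5.74 at 24 h, against 8.68, 8.95 and 8.94 at 2 h, and fell by 3.00 (SE 0.29, adjusted p = 4.97e-10), or 8.02-fold. Tnc, tenascin C, an anti-adhesive glycoprotein of wound edges, was 5.80, 5.68 and 5.30 at 24 h, against 7.93, 7.54 and 7.46 at 2 h, and fell by 2.05 (SE 0.34, adjusted p = 2.22e-05). For both genes every array at 24 h lay below every array at 2 h. Lox was 9.84, 9.66 and 9.73 at 24 h, against 10.81, 10.67 and 10.59 at 2 h, and fell by 0.95 (SE 0.17, adjusted p = 8.54e-05). Prelp was 6.73, 6.58 and 6.84 at 24 h, against 7.60, 7.68 and 7.55 at 2 h, and fell by 0.89 (SE 0.16, adjusted p = 6.64e-05). Neither Lox nor Prelp overlapped between times. Col8a1 fell by 0.81, Col5a3 by 0.76 and Col6a3 by 0.73, and Lamb1, Col1a1, Dcn, Nid1 and Col3a1 fell by 0.29 to 0.58. Each of these 5 calls except that of Nid1 was lost when a single array was left out, with an adjusted p up to 0.172 for Col1a1 (without the 24 h replicate 3) and 0.148 for Col3a1, 0.109 for Dcn and 0.104 for Lamb1 (each without the 24 h replicate 2). Col1a1 and Col3a1 were also not called without the 4 arrays with a raised Gapdh difference (adjusted p = 0.0918 and 0.0507). Smoc2 had a difference of -0.33 that was not called, between values under the low-signal limit. Without those 4 arrays it was called, at -0.40 (adjusted p = 0.0418).

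In untreated vector cells 17 of 36 genes were called, 5 higher and 12 lower at 24 h, against 25.9% of all genes (13.0% higher, 12.9% lower), with a median of -0.12 against 0.02. Most of the matricellular genes fell, and the fibrillar chain Col3a1 and the collagen VI chains Col6a1 and Col6a2 rose. Tnc was 6.08, 5.83 and 5.87 at 24 h, against 9.20, 8.94 and 7.58 at 2 h. Even the lowest array at 2 h, replicate 3, lay above all those at 24 h, and Tnc fell by 2.65 (SE 0.34, adjusted p = 1.45e-07). Smoc2 was 7.19, 7.19 and 6.90 at 24 h, against 9.50, 9.42 and 9.44 at 2 h, and fell by 2.36 (SE 0.13, adjusted p = 6.40e-17). Thbs1 was 6.20, 6.14 and 6.16 at 24 h, against 8.15, 8.16 and 6.71 at 2 h, and fell by 1.51 (SE 0.29, adjusted p = 1.19e-04). The 2 h spread of Tnc and Thbs1 came from replicate 3, the array that stood apart, and neither gene's times overlapped, as in shRNA cells. Postn, periostin, which binds collagen I and fibronectin, was 6.67, 6.42 and 6.60 at 24 h, against 8.06, 7.92 and 7.36 at 2 h, and fell by 1.22 (SE 0.17, adjusted p = 5.24e-07).

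Collagens of the vector line moved in both directions. Col3a1 was 11.92, 12.11 and 11.78 at 24 h, against 11.06, 10.97 and 11.31 at 2 h, and was 0.83 higher (SE 0.10, adjusted p = 5.82e-08). Col6a2 was 9.07, 9.17 and 9.04 at 24 h, against 8.43, 8.48 and 8.12 at 2 h, a rise of 0.75 (adjusted p = 1.75e-08), and Col6a1 rose by 0.62 (adjusted p = 1.20e-06). None of these 3 overlapped between times. Col4a1 was 9.99, 10.31 and 9.62 at 24 h, against 10.86, 10.58 and 11.29 at 2 h, and fell by 0.94 (SE 0.22, adjusted p = 0.00116), and Col4a2 fell by 0.65. Col5a2 fell by 0.63. Col1a1 was called lower by its brightest probe set (-0.59, adjusted p = 0.0339), while its other probe set had a difference of 0.31, and the call was lost without the 3 arrays that stood apart (adjusted p = 0.0657) or without the 24 h replicate 3 (adjusted p = 0.245). Sparcl1 rose by 0.73. Prelp had a fitted difference of 0.69 and was called, but all 3 of its values at 2 h and 1 at 24 h were under the low-signal limit, so the size of this rise was not measured. Fbln2 fell by 0.90, Lamb1 by 0.67, Nid1 by 0.55 and Bgn by 0.19. Bgn lost its call without any of 5 single arrays (adjusted p up to 0.217, without the 24 h replicate 3). Without the 3 arrays that stood apart Bgn was also no longer called, while Col6a3 (-0.50), Dcn (0.54), Fn1 (-0.49) and Lamc1 (-0.59) were. Col6a3, Dcn, Fn1 and Lamc1 were likewise called without the 4 arrays with a raised Gapdh difference, and Col1a1 was not (adjusted p = 0.0958).

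**Figure D3:**
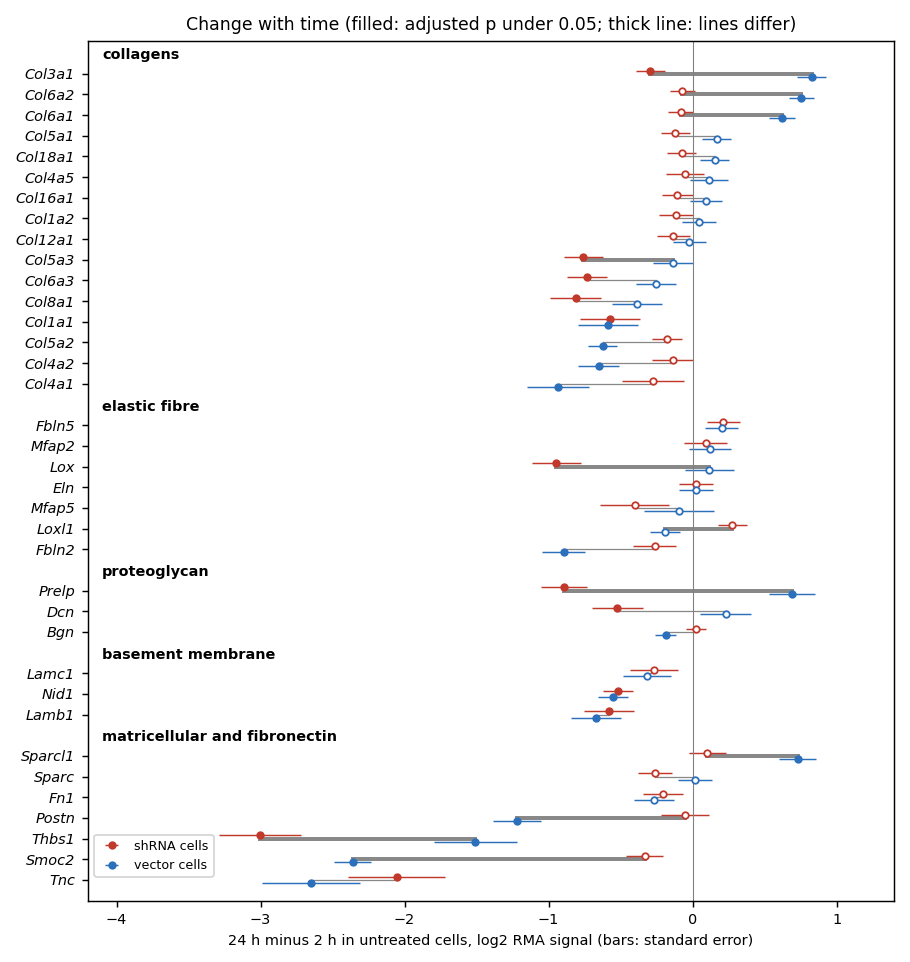
Log2 difference, 24 h minus 2 h, of the 36 tested matrix genes in untreated shRNA and vector cells, with bars for the standard error, filled symbols where called, and a thick grey line where the lines differed in the test of the difference. Tnc is far to the left in both lines (-2.05 and -2.65), Thbs1 further left in shRNA cells (-3.00 and -1.51), and Col3a1 lies left of 0 in shRNA cells (-0.29) and right of it in vector cells (0.83).

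Testing the difference between those time changes called 11 of 36 genes, 3 positive and 8 negative, against 5.69% of all genes (2.97% and 2.72%). A positive value means that the 24 h minus 2 h difference was more positive in shRNA cells. Collagens contributed 4, all negative: Col3a1 at -1.12 (SE 0.14, adjusted p = 7.95e-07), Col6a2 at -0.82 (adjusted p = 1.41e-05), Col6a1 at -0.70 (adjusted p = 2.33e-04) and Col5a3 at -0.62 (adjusted p = 0.0482). Col3a1 showed the contrast most plainly, at 11.63, 11.38 and 11.45 at 24 h against 11.84, 11.75 and 11.75 at 2 h in shRNA cells, while it rose in vector cells. Prelp had -1.58 (SE 0.22, adjusted p = 6.35e-06), Lox -1.06 (adjusted p = 0.00489), Thbs1 -1.50 (adjusted p = 0.0202) and Sparcl1 -0.63 (adjusted p = 0.0316). Smoc2 had 2.03 (SE 0.18, adjusted p = 2.26e-10), Postn 1.16 (SE 0.23, adjusted p = 0.00126) and Loxl1 0.47 (adjusted p = 0.0477). Smoc2 and Sparcl1 in shRNA cells, and Prelp in most vector arrays, were under the low-signal limit, where a change over time would show little. Tnc had 0.60, not called, and was called at 1.09 (adjusted p = 0.00201) without the 3 vector arrays that stood apart, as was Dcn at -1.07 (adjusted p = 0.00129). Without those arrays Col5a3 and Loxl1 were no longer called (adjusted p = 0.12 and 0.0545), and without the untreated 2 h vector replicate 3 alone Thbs1 was not, at -1.01 (adjusted p = 0.116). Leaving out single arrays also ended the calls of Col5a3 (adjusted p up to 0.165, without the untreated 24 h vector replicate 1), Loxl1 (up to 0.177, without the untreated 24 h vector replicate 3) and Sparcl1 (up to 0.105, without the untreated 24 h shRNA replicate 3). Without the 4 arrays with a raised Gapdh difference Sparcl1, Col5a3 and Loxl1 were not called (adjusted p = 0.0943, 0.147 and 0.101). Col5a2 (0.38, adjusted p = 0.0456) and Dcn (-1.02, adjusted p = 0.00267) then were. Fitting only the groups compared called 7 of the 36 genes.

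The same comparison of 24 h with 2 h among irradiated arrays, chosen after seeing the data, used none of the untreated arrays. It called 15 of 36 genes in shRNA cells (4 higher, 11 lower), against 37.3% of all genes (21.7% higher, 15.6% lower). In vector cells it called 17 (7 higher, 10 lower), against 35.3% (21.4% higher, 13.8% lower). The difference between lines was called for 13 genes (4 positive, 9 negative), against 11.7% of all genes (5.23% and 6.44%). Among them Smoc2 and Sparcl1 were under the low-signal limit on all 18 irradiated shRNA arrays. Prelp was under it on 13 of 17 irradiated vector arrays. A change over time would show little there, so this count is a description. Beside the untreated values above, Col3a1 had -1.18, Col6a2 -0.59, Col6a1 -0.38, Lox -0.96, Prelp -0.61, Thbs1 -1.37, Sparcl1 -0.70, Col5a3 -0.67, Smoc2 1.77, Postn 1.16 and Loxl1 0.55, all called. Fbln2 at 0.59 and Col5a1 at -0.58 were called among irradiated arrays, whereas among untreated arrays Fbln2 had 0.63 and Col5a1 -0.29, neither called. The Fbln2 and Prelp calls among irradiated arrays were each lost without 1 vector array at 10 cGy and 24 h, replicate 3 for Fbln2 (0.40, adjusted p = 0.0857) and replicate 1 for Prelp (-0.45, adjusted p = 0.0737). With the 3 divergent vector arrays of 2 h left out, the difference between lines was also called for Col4a5 (-0.41, adjusted p = 0.0184), Dcn (-0.50), Fn1 (0.29) and Bgn (0.23). In vector cells Col5a1 was then no longer called (0.16, adjusted p = 0.0804), and Col1a1 (-0.47), Fn1 (-0.38), Col6a3 (-0.30), Lamc1 (-0.25), Bgn (-0.14), Dcn (0.39) and Col4a5 (0.36) were. In shRNA cells Col16a1 was no longer called without the 4 arrays with a raised Gapdh difference (0.18, adjusted p = 0.0596).

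**Figure D4:**
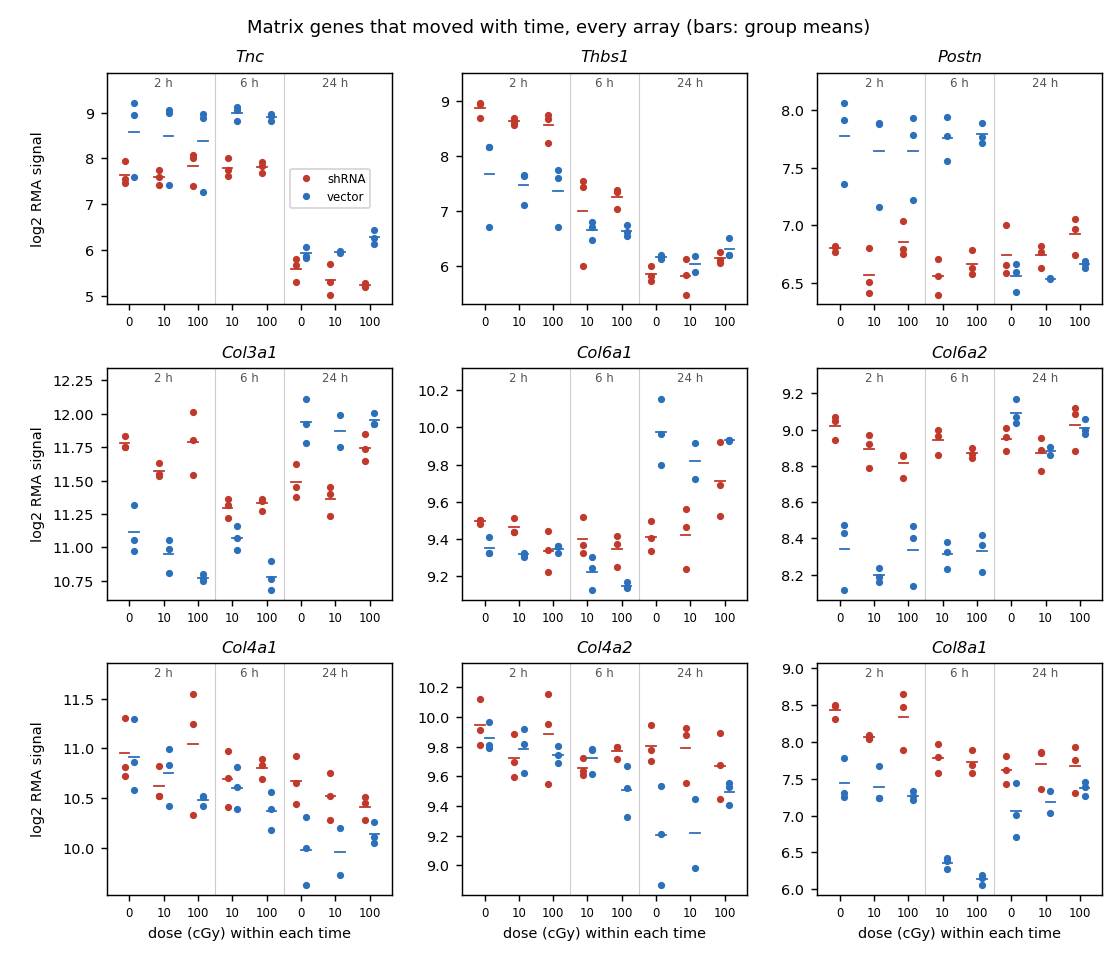
Log2 signal on every array by hour after treatment and dose (cGy) for 9 matrix genes that moved with time, shRNA arrays left of vector arrays, with bars at group means. Col3a1 on untreated vector arrays lies at 11.78 to 12.11 at 24 h and at 10.97 to 11.31 at 2 h, and Tnc is lower at 24 h than at 2 h in both lines.

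The upstream 250 bases of Tnc and Col3a1 are shown for their opposite courses in vector cells, where Tnc fell and Col3a1 rose. Both hold the letters TATAAA, in capitals, beginning 126 bases before the annotated start in Tnc and 117 in Col3a1. Tnc lies at chr4:64047016-64047265 on the minus strand, its outermost annotated start, and Col3a1 at chr1:45311288-45311537 on the plus strand, from RefSeq on GRCm38.p6.
Tnc: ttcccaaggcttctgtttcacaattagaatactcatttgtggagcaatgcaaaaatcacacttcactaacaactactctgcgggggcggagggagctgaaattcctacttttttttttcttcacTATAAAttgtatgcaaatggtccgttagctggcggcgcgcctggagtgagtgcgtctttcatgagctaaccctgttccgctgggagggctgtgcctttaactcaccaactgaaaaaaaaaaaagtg
Col3a1: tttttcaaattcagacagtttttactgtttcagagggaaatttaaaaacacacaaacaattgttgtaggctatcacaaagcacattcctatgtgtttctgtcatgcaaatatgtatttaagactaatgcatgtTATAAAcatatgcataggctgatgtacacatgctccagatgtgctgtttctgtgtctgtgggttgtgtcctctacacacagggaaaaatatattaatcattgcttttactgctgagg
TATAAA was found in 5 of 37 windows of matrix genes (13.5%), against 12.4% of all mouse windows, and neither printed window holds CCAAT or TGANTCA. The 5 include another Tnc window that overlaps the printed one and holds the same TATAAA, so that site was counted more than once.

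Neighbouring genes did not always share a course. Col3a1 and Col5a2 lie 24624 bases apart on chromosome 1, and in untreated vector cells Col3a1 had a time difference of 0.83 and Col5a2 of -0.63. Col6a2 and Col6a1, 85161 bases apart on chromosome 10, had 0.75 and 0.62. Col4a1 and Col4a2 are divergent genes that overlap at their annotated starts on chromosome 8, and they had -0.94 and -0.65. Dcn, decorin, was well above the low-signal limit and Lum, its neighbour 47337 bases away, was under it on every array.

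Harvest at 6 h existed only for irradiated cells, so it was compared with the 2 h and 24 h irradiated arrays and not with untreated ones. Between 2 and 6 h 7 of 36 genes were called in shRNA cells (1 higher, 6 lower at 6 h), against 21.5% of all genes (12.0% higher, 9.51% lower). In vector cells 8 were called (3 higher, 5 lower), against 16.7% (8.90% higher, 7.82% lower). Among these 8, Sparc (-0.24, adjusted p = 0.0475) was not called without the 3 vector arrays that stood apart (-0.22, adjusted p = 0.0803). Between 6 and 24 h the counts were 14 in shRNA cells (6 higher, 8 lower at 24 h), against 39.2% (20.7% higher, 18.6% lower). They were 22 in vector cells (10 higher, 12 lower), against 39.0% (22.4% higher, 16.5% lower). Without the 4 arrays with a raised Gapdh difference Col5a2 was also called between 6 and 24 h in shRNA cells (-0.15, adjusted p = 0.0332). Col8a1 in shRNA cells had a difference of -0.45 from 2 to 6 h (adjusted p = 0.00724) and of -0.07 from 6 to 24 h, not called. In vector cells Col8a1 dipped at 6 h, at 7.68, 7.23 and 7.24 at 2 h after 10 cGy, 6.38, 6.42 and 6.28 at 6 h, and 7.33 and 7.03 at 24 h. After 100 cGy Col8a1 was 7.21, 7.26 and 7.34 at 2 h, 6.05, 6.15 and 6.20 at 6 h, and 7.26, 7.39 and 7.46 at 24 h. At both doses all 6 h values lay below all others, with differences of -1.08 from 2 to 6 h (adjusted p = 4.30e-08) and 1.03 from 6 to 24 h (adjusted p = 5.11e-08).

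In vector cells several other genes were called between 6 and 24 h and not between 2 and 6 h. Tnc after 10 cGy in vector cells was 8.99, 9.06 and 7.41 at 2 h, 9.11, 9.06 and 8.80 at 6 h, and 5.93 and 5.99 at 24 h. Between 6 and 24 h Tnc fell by 2.52 in shRNA cells and fell by 2.83 in vector cells (adjusted p = 8.78e-11 and 1.34e-11), and was not called between 2 and 6 h in either line, with differences of 0.09 in shRNA cells and 0.52 in vector cells. Smoc2 fell by 2.11 and Postn by 1.17 between 6 and 24 h in vector cells, while Col3a1 and Sparcl1 rose by 0.99 each, Col6a1 by 0.69 and Col6a2 by 0.62. Between 2 and 6 h Sparcl1 had -0.24 in vector cells (adjusted p = 0.0599), and was called at -0.29 (adjusted p = 0.0416) without the 3 vector arrays that stood apart. Lamb1 was higher at 6 than at 2 h in both lines (0.45 in shRNA and 0.56 in vector cells) and then fell by 1.15 and by 1.08. Thbs1 fell early, by 1.47 in shRNA cells between 2 and 6 h (adjusted p = 1.23e-06) and by 0.76 in vector cells (adjusted p = 0.00705), and by a further 1.14 in shRNA cells by 24 h. In the mean over both doses Prelp in shRNA cells had a minimum at 6 h, at -0.87 from 2 to 6 h (adjusted p = 3.23e-07) and 0.94 from 6 to 24 h (adjusted p = 1.48e-08), and so did Col4a5, at -0.63 and 0.58. At 24 h Prelp in shRNA cells was higher after 100 than after 10 cGy, as given below, so its 0.94 mixes dose with time. The Col4a5 course in vector cells was shallower, with -0.31 and 0.53, both called, although the first call was lost without the 100 cGy 2 h vector replicate 3 (-0.20, adjusted p = 0.103) and on leaving out all 3 divergent vector arrays of 2 h (-0.17, adjusted p = 0.198). Loxl1 in shRNA cells had -0.28 and then 0.74.

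After irradiation Prelp was the 1 matrix gene called against untreated cells. At 24 h in shRNA cells Prelp was 6.73, 6.58 and 6.84 in untreated cells, 6.65, 6.51 and 7.22 after 10 cGy, and 7.85, 7.51 and 8.07 after 100 cGy. All 3 arrays at 100 cGy lay above all others of that hour. The difference between 100 cGy and untreated was 1.09 (SE 0.16, 95% interval 0.77 to 1.41, adjusted p = 7.83e-05), and Prelp was the 1 gene called of 36, against 0.161% of all genes. In vector cells Prelp was 4.10, 4.63 and 4.61 untreated, 4.82 and 4.20 after 10 cGy, and 4.58, 4.89 and 4.64 after 100 cGy, close to the low-signal limit. Its difference at 100 cGy there was 0.26 (95% interval -0.06 to 0.58), not called. The test of the difference between lines gave 0.83 (95% interval 0.38 to 1.29) with an adjusted p of 0.3, so a difference between lines in the Prelp response was not called, with 0.0807% of all genes called in that test. At 2 h after 100 cGy Prelp in shRNA cells was 7.23, 7.36 and 7.05, against 7.60, 7.68 and 7.55 in untreated cells, and was not called.

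**Figure D5:**
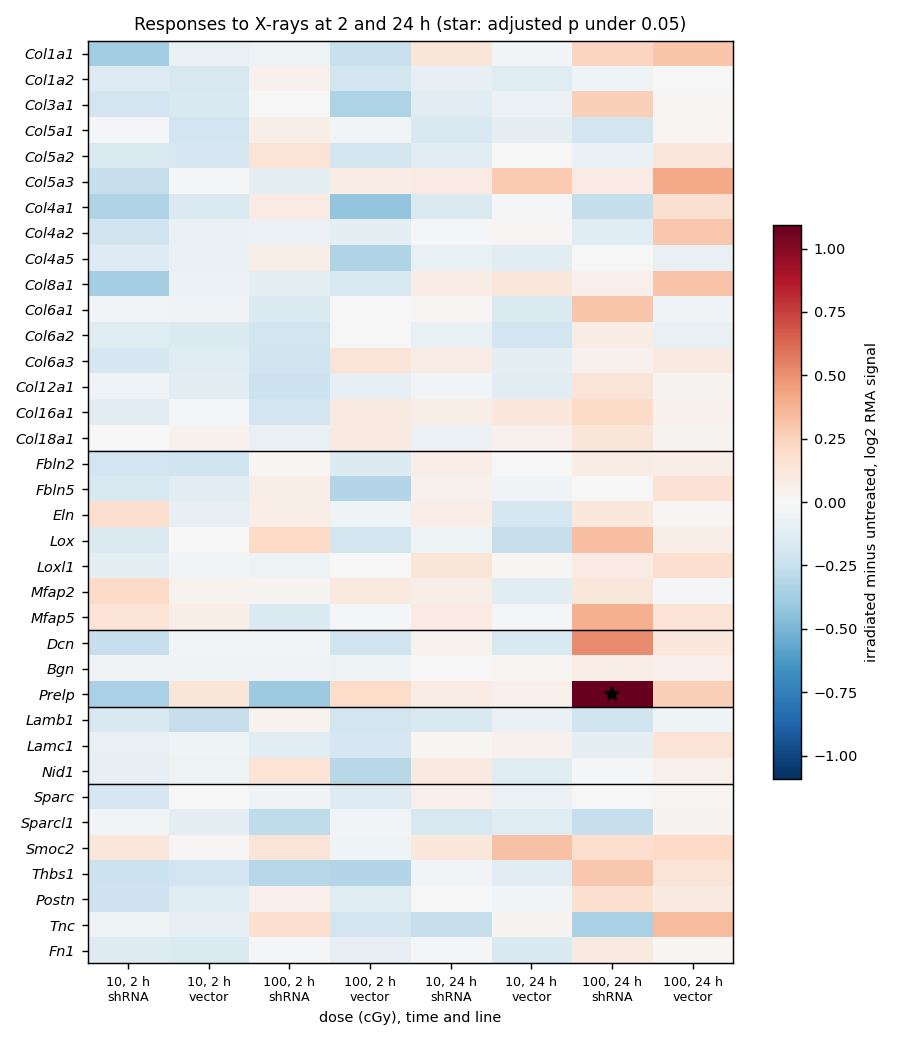
Log2 difference, irradiated minus untreated, of the 36 tested matrix genes (rows, grouped by class) by dose, hour and line (columns, shRNA left of vector), as colour from blue (lower) to red (higher). The 1 star marks Prelp at 100 cGy and 24 h in shRNA cells (1.09), the one adjusted p under 0.05, and all other cells lie between -0.43 and 0.52.

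No other matrix gene was called by limma in any dose comparison with untreated cells. At 2 h after 100 cGy, 0 of 36 were called in shRNA cells, against 0.0231% of all genes, with 4 at an unadjusted p under 0.05, and 0 in vector cells, against 0.0461%, also with 4. At 24 h after 100 cGy in vector cells 0 were called, against 0.0922% (0.0692% higher, 0.0231% lower), with 2 at an unadjusted p under 0.05. After 10 cGy 0 were called in each line at 2 and 24 h, with 0 to 3 at an unadjusted p under 0.05. The backgrounds at 10 cGy were 0.0115% in shRNA cells at 2 h, 0% in vector cells at 2 h, 0% in shRNA cells at 24 h and 0.0115% in vector cells at 24 h. At 2 h after 100 cGy the 36 differences lay between -0.40 and 0.22 in shRNA cells, with a median of -0.03, and between -0.43 and 0.20 in vector cells, with a median of -0.12. At 24 h after 100 cGy the lowest and highest were -0.36 and 1.09 in shRNA cells and -0.08 and 0.42 in vector cells. The medians there were 0.09 and 0.07, beside all-gene medians of -0.02 and 0.02. The 10 and 100 cGy comparisons share the untreated arrays. Comparing 100 with 10 cGy directly over both lines, Prelp was called at 24 h with 0.61 (adjusted p = 0.0224), against 0.115% of all genes. That call was lost when only the groups compared were fitted and when the 10 cGy vector replicate 3 was left out. The other 35 genes were not called at 24 h, and no matrix gene was at 2 h (0.0346% of all genes) or 6 h (0.0807%).

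Genes that make, bind or respond to the matrix were counted beside it. The all-gene share called in untreated cells was 48.2%, with 24.1% in each direction. Of 19 tested genes of collagen processing, 8 were higher and 6 lower in untreated shRNA cells. They include Pcolce2, an enhancer of procollagen cleavage (0.69), Plod2, a lysyl hydroxylase (0.51), Colgalt1, a collagen galactosyltransferase (0.42), and P3h3, a prolyl hydroxylase (-0.99). Of 17 matrix receptors 5 were higher and 5 lower, with the collagen receptor Ddr1 at 1.10, the integrin Itgav at 0.63, dystroglycan Dag1 at 0.60 and the syndecan Sdc4 at -1.22. Of 20 genes of the TGF-beta pathway, a known inducer of collagen genes, 10 were higher and 7 lower. Among them were the decoy receptor Bambi at 0.95, the ligand Tgfb3 at -0.78 and the receptor Tgfbr1 at -1.14. Ltbp2, named after the latent TGF-beta binding protein family, had -0.98. The medians of these lists were 0.02, -0.00 and 0.13, beside 0.30 for the matrix genes and 0.02 for all genes. Over time in untreated cells, where 19.2% of all genes were called in shRNA cells and 25.9% in vector cells, 1 TGF-beta pathway gene was higher and 7 lower at 24 h in shRNA cells, against 2 and 8 in vector cells. The inhibitory Smad7 fell by 1.77 in shRNA cells and fell by 2.05 in vector cells. Receptors had 1 higher and 5 lower in shRNA cells and 0 and 5 in vector cells, and collagen processing genes 2 and 6, and 2 and 3. The difference of the time changes between lines was called for 2 collagen processing genes, 3 receptors and 2 TGF-beta pathway genes, against 5.69% of all genes.

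Other probe sets of the same gene were set beside the brightest in 4 comparisons, those of line, of time in each line and of the difference between them in untreated cells. Among probe sets above the low-signal limit, the others had the same sign in 41 of 42 called pairs of gene and comparison, and the opposite sign in 1, that of Col1a1 over time in vector cells. Probe sets under the limit were not counted. Among these was the second of Col5a3, with a mean of 2.74, which had 0.17 over time in shRNA cells and 0.18 for the difference between lines, opposite in sign to the called values. Pairs not called on the brightest probe set were not counted either. For Eln the probe sets had 0.01 and 0.05 for line. The second of Fn1 had -0.43 for line and -0.81 over time in shRNA cells, against -0.06 and -0.21. Its time difference between lines was -0.99, against 0.06. The others of Col5a1 had -0.58 and -0.68 over time in shRNA cells, against -0.12.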

How the data were processed

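Each of 47 RNA samples was hybridised to a 1-colour Affymetrix array. The authors deposited log2 signals per probe set, summarised by RMA (background correction, quantile normalization and median polish) per the submitters' processing notes. Of 22690 probe sets, 64 were controls, 20380 named 1 gene, 691 several and 1555 none. Only those naming 1 gene were used, with the brightest on average per gene (12393 genes). Genes in the lowest 30% of means were left out, which left 8675.

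Group means of the 16 groups were fitted over all arrays with limma 3.58.1 (R 4.3.3; 31 residual and 5.68 prior degrees of freedom) and two-sided moderated tests, with Benjamini-Hochberg adjustment over all 8675 genes. The fit was tested on simulated data. Genes and lists were chosen with earlier results of these data known. Genes named with values on each array were those called with a line difference of at least 1 (log2), up to 10 a direction, and up to 6 called genes a direction elsewhere; of other lists, up to 4 with the smallest p. Alternatives were no filter, mean of probe sets, renormalization, median centring, intensity trend, only the groups compared, a replicate block and left-out arrays. Sequences are RefSeq's on GRCm38.p6, with windows for 29 of the 45 genes. 1 vector array at 10 cGy and 24 h (replicate 2) was not analysed here.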

Additional observations from a re-analysis of the deposited data

Results flagged for a closer look

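For 11 matrix genes the difference between 24 h and 2 h in untreated cells itself differed between lines by limma's test (adjusted p under 0.05). As shRNA minus vector, Smoc2 had 2.03, Postn 1.16 and Loxl1 0.47. On the other side Prelp had -1.58, Thbs1 -1.50, Col3a1 -1.12, Lox -1.06, Col6a2 -0.82, Col6a1 -0.70, Sparcl1 -0.63 and Col5a3 -0.62. The Smoc2 and Sparcl1 values in shRNA cells lay under the low-signal limit at both times. So did 4 of the 6 untreated vector values of Prelp. The part of the vector arrays that stood apart in the Thbs1, Col5a3 and Loxl1 differences is given by the values without them above.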

How the results depend on the processing

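Counts of called matrix genes stayed within 1.5 times of those reported under each alternative, with 3 exceptions among those that left in all arrays. The count of genes whose time change differed between lines was 7 with only the groups compared. The test of whether the 100 cGy response at 24 h differed between lines called 1 gene with the mean of all probe sets. The comparison of 100 with 10 cGy at 24 h called 0 with only the groups compared. For these 3 the cause was not tested. Leaving out single arrays gave 25 to 27 genes for the line difference in untreated cells (22 to 24 at 2 h, 21 to 23 at 24 h), 30 to 30 in irradiated cells, 8 to 10 over time in untreated shRNA cells, 15 to 19 in vector cells and 7 to 14 for their difference. For irradiated cells it gave 7 to 12 (shRNA) and 6 to 8 (vector) between 2 and 6 h, and 13 to 15 and 18 to 23 between 6 and 24 h. For Prelp it gave 1 to 1 at 100 cGy and 24 h in shRNA cells and 0 to 1 for 100 against 10 cGy, and 0 in the other dose comparisons. For the pairs of gene and comparison that the naming rule picked, with left-out arrays taken at their largest adjusted p, 945 values kept their call and direction, 20 lost the call and 0 reversed. Over all called pairs of line and time comparisons, 37 of 241 lost the call without at least 1 single array. Replicates of 1 number in the same line and time had deviations with a median correlation of 0.23 (-0.29 to 0.72) over 40 pairs. Of these 27 were over 0.1, against 18 of 80 pairs of other numbers, whose median was -0.10. Arrays of 1 number thus tended to deviate together. The main fit held no replicate block, because the labels do not say what a number shares. The numbers tied arrays more in the vector line at 24 h (7 of 7 pairs over 0.1) and 2 h (8 of 9) than at 6 h (0 of 3). Among same-number pairs from different lines or times 124 of 305 were over 0.1. With a replicate block shared by all lines and times the counts were 27 for the line difference in untreated cells, 12 over time in shRNA cells, 18 in vector cells and 12 for their difference. That block does not remove deviations shared within a line and time. A block within line and time was fitted for the dose comparisons only. The line and time counts thus treat arrays that deviate together as separate. Low signal limits Mfap5 and Prelp in vector cells and Smoc2 and Sparcl1 in shRNA cells to bounds.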
